A study of Saccharomyces cerevisiae with 6 samples.

Results

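The 32 genes described here encode enzymes and regulators that remove reactive oxygen species from budding yeast or repair the thiols and methionines that these species oxidise. They were listed by symbol as catalases, superoxide dismutases, peroxidases, and parts of the glutathione and thioredoxin systems. The platform annotation paired each symbol with exactly 1 probe set, so all 32 were measured, out of 5449 Saccharomyces cerevisiae genes tested. No filter on low values was applied to them.

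Expression was read on 6 one-colour Affymetrix arrays, 1 per RNA sample, 3 with the label wild type (WT) and 3 with the label gpm1 mutant. GPM1 (YKL152C) encodes phosphoglycerate mutase, a glycolytic enzyme, and the study set the mutant against its reference strain. All samples came from batch growth on ethanol and glycerol. The sources used here do not give the strain background, the marker of the deletion, the number of clones or any pooling. They do not state separate cultures within a group either, so the spread behind each p-value is that of these samples and may be technical.

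Superoxide dismutases turn superoxide into hydrogen peroxide, which is a by-product of respiration and of fatty acid oxidation. Catalases and heme peroxidases break hydrogen peroxide down directly, while peroxiredoxins and the glutathione peroxidase family pass electrons to it from thioredoxin or glutathione. Thioredoxin reductase and glutathione reductase restore those carriers with NADPH, and the cytosol and the mitochondrion hold separate thioredoxin systems. In this yeast the transcription factor Yap1, activated by peroxide through Hyr1, and its partner Skn7 induce many of these genes, and Msn2 and Msn4 induce others, such as CTT1, when growth slows or stress sets in.

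The labels and the deleted gene disagreed. The log2 signal of GPM1 was at background on the arrays labelled WT (5.16, 5.12 and 5.17) and bright, at 12.51, 12.48 and 11.82, on those labelled gpm1. Groups are therefore named by their labels only, and every direction below is that of the labelled groups and not of the genotype. The arrays labelled gpm1 also spread more. Over the 32 genes their median SD was 0.238, against 0.0477 in labelled WT, which is 4.99 times as large and near the 5.12 times found over all genes. Along the first principal component labelled gpm1 replicate 3 lay at -7.29, nearer to the arrays labelled WT (-15.85, -14.60 and -15.70) than replicates 1 and 2 did (33.33 and 20.11). The poly-A spike-in controls averaged 7.14, 6.67 and 6.21 on labelled gpm1 replicates 1, 2 and 3, against 5.92 to 6.22 on the arrays labelled WT. Their part in the results was not tested.

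Among the 32 genes 1 was lower in the arrays labelled gpm1, GPX1, 0 were higher and 31 did not pass (limma, Benjamini-Hochberg adjusted p of 0.05 over all 5449 genes). The share called over all genes was 0.807% in either direction, 0.789% lower and 0.0184% higher. The only gene behind the share called higher was GPM1 itself. Differences are given on the log2 scale, labelled gpm1 minus labelled WT. Before adjustment 13 of the 32 (40.6%) had p under 0.05, beside 22.4% of all genes. The log2 differences ran from -1.60 to 0.63, with 16 above and 16 below 0 and a median of -0.02, beside 0.02 over all genes. Groups did not overlap for 15 of the 32 genes, 7 higher and 8 lower in the arrays labelled gpm1, which is 46.9% beside 34.6% of all genes (19.2% higher and 15.4% lower). The 32 genes were chosen with earlier results of these data known, so a share above that of all genes is a description only. The shares over all genes are the background for every count by system below. A difference of 2-fold was reached by GPX1 and by no other of the 32, while 2.66% of all genes reached it.

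**Figure D1:**
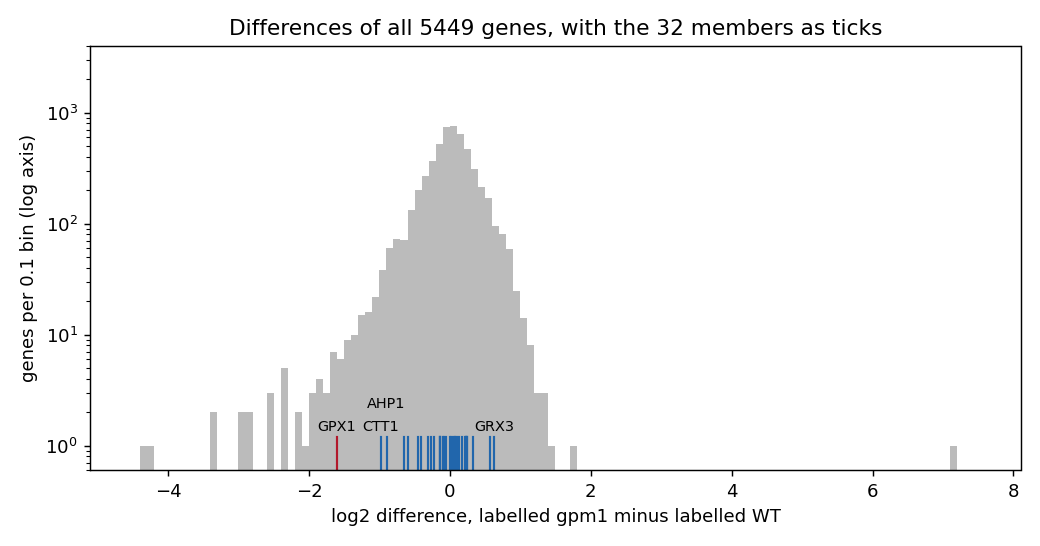
Histogram of labelled gpm1 minus labelled WT, as a log2 difference, for all 5449 genes in bins of 0.1 with a logarithmic count axis; ticks at the base mark the 32 genes, red for the called gene and blue for the others. The ticks span -1.60 (GPX1) to 0.63 (GRX3), and GPX1 ranks 35 from the lowest of all genes.

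GPX1 (YKL026C), 1 of the 3 glutathione peroxidase homologues, encodes a phospholipid hydroperoxide peroxidase known to be induced on starvation. Its log2 signal was 8.95, 8.76 and 9.21 on the arrays labelled WT and 7.16, 7.18 and 7.78 on those labelled gpm1. Every array labelled gpm1 lay below every array labelled WT, with replicate 3 nearest to them, and the arrays labelled WT spread more for GPX1 than for any other of the 32 genes (SD 0.227). The mean fell from 8.97 ± 0.23 to 7.37 ± 0.35 (SD, n = 3), a log2 difference of -1.60 (SE 0.21, limma adjusted p = 0.035) and a 3.03-fold lower level. Each array reads RNA pooled over many cells, so fewer cells with the transcript and less of it per cell cannot be told apart. This call ended when any 1 array other than labelled gpm1 replicate 3 was left out, with adjusted p-values from 0.062 to 0.224 and log2 differences from -1.71 to -1.48. Without labelled gpm1 replicate 3, in a fit that called 41.1% of all genes, the difference was -1.80 (adjusted p = 0.0012). That replicate was the nearest of the arrays labelled gpm1 to labelled WT for 65.6% of all genes. Limma pools the spread of both labelled groups. With fewer arrays left in the group that spreads more, the p-values of such fits, here and below, can be too small.

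The other peroxidases of this family did not share that size of difference. HYR1, also called GPX3, acts as the peroxide sensor that oxidises Yap1, and it stood at 10.49, 10.66 and 10.23 on the arrays labelled gpm1 against 10.34 to 10.42 on those labelled WT (difference 0.08, adjusted p = 0.712). GPX2, the third homologue, differed by -0.10 (adjusted p = 0.539). CCP1, a heme peroxidase between the mitochondrial membranes that uses cytochrome c, differed by -0.05 (adjusted p = 0.750). The labelled groups overlapped for each of these 3 genes.

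The catalase genes were lower in each of the 3 arrays labelled gpm1, and neither passed. CTT1 encodes the cytosolic catalase T, a stress gene. Its signal was 7.48, 7.26 and 7.56 on the arrays labelled WT and 7.06, 6.22 and 6.09 on those labelled gpm1, a difference of -0.98 (SE 0.26, adjusted p = 0.186). The last value lay just under the level that 95% of background probe sets stay below (6.10), so in replicate 3 the signal could not be told from background. The replicate 2 value, 6.22, was close to that level.

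CTA1 encodes catalase A of peroxisomes and mitochondria, which handles the peroxide made in fatty acid oxidation. It stood at 10.22, 10.12 and 10.31 on the arrays labelled WT and at 9.01, 9.86 and 9.83 on those labelled gpm1 (difference -0.65, SE 0.24, adjusted p = 0.207). The catalases differed in where labelled gpm1 replicate 1 stood. For CTA1 it was the farthest array from labelled WT, at -1.20 against -0.36 and -0.38. For CTT1 it was the nearest, at -0.38 against -1.21 in replicate 2, close to background, and a signal at background in replicate 3. CTT1 passed without labelled gpm1 replicate 1 (-1.28, adjusted p = 0.020), in a fit where 1.10% of all genes passed. That value rests on replicate 3 at background and replicate 2 close to it. CTT1 did not pass without replicate 3 (-0.80, adjusted p = 0.060).

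**Figure D2:**
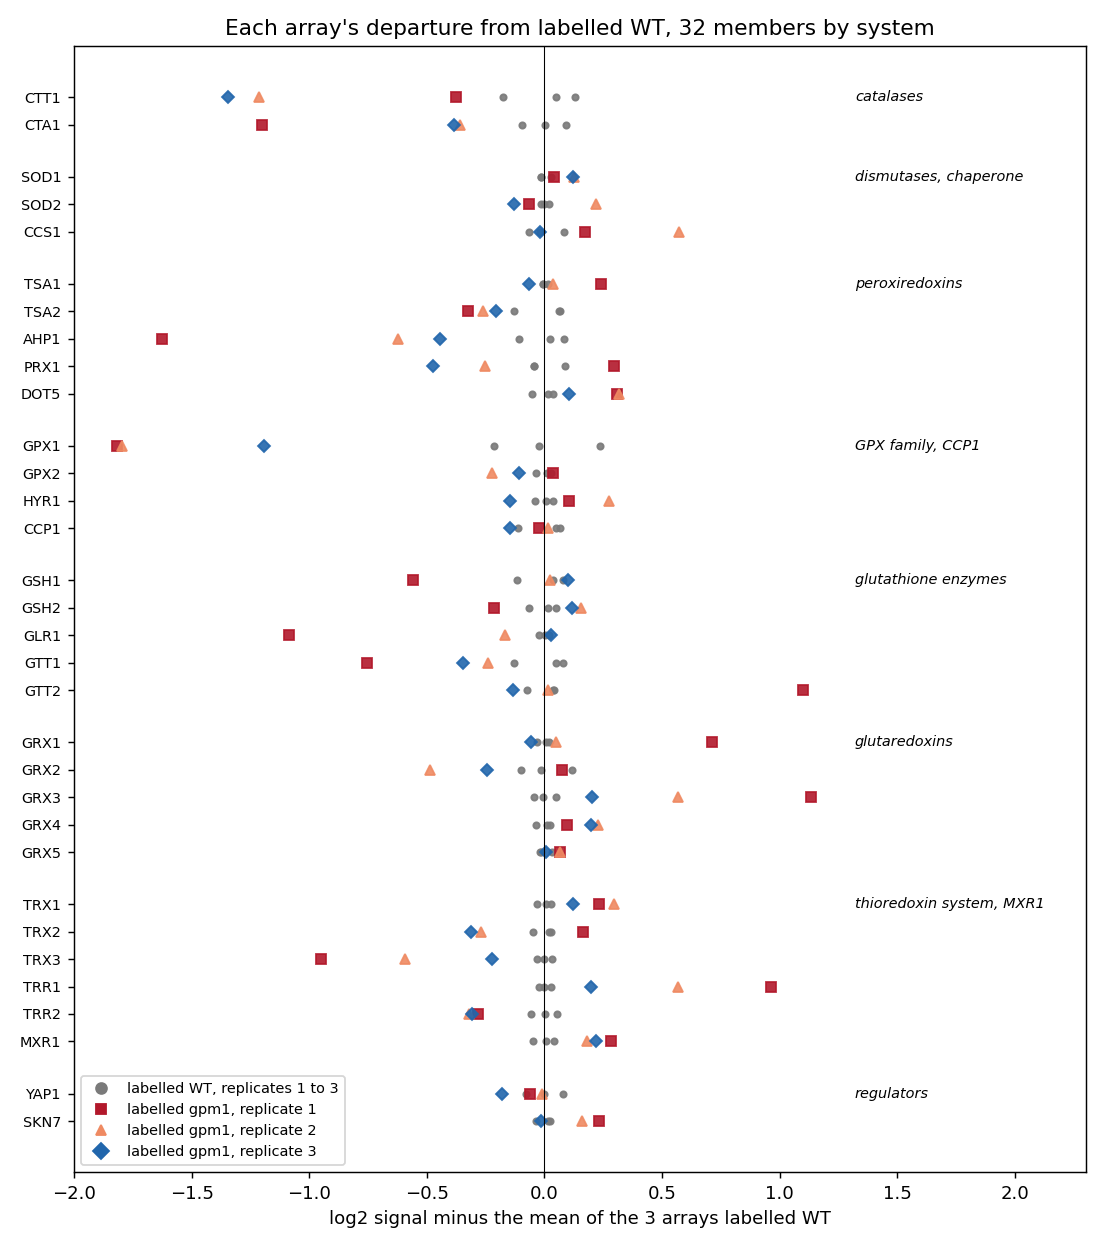
Departure of each array from the mean of the 3 arrays labelled WT, as a log2 difference on the x axis, for the 32 genes on the y axis grouped by system. Grey circles are the arrays labelled WT and coloured symbols those labelled gpm1. GPX1 lies below labelled WT by 1.19 to 1.81 in all 3 arrays labelled gpm1, and replicate 1 is the nearest of the 3 to labelled WT for CTT1 and the farthest for CTA1.

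The superoxide dismutases stood close to labelled WT. SOD1, the cytosolic copper-zinc enzyme, was 12.02, 11.98 and 11.98 on the arrays labelled WT and 12.03, 12.12 and 12.11 on those labelled gpm1. Its groups did not overlap, but the difference was 0.10 (SE 0.08, adjusted p = 0.464). SOD2, the mitochondrial manganese enzyme, differed by 0.01 (SE 0.11, adjusted p = 0.969), with arrays labelled gpm1 on either side of labelled WT. CCS1, the chaperone that loads copper into Sod1, stood at 7.85, 8.25 and 7.66 on the arrays labelled gpm1 against 7.61 to 7.76, so only replicates 1 and 2 lay above labelled WT (difference 0.24, adjusted p = 0.374).

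Of the 5 peroxiredoxin genes 0 passed with limma (3 before adjustment), and their differences went either way. AHP1, a cytosolic thioredoxin peroxidase that prefers alkyl hydroperoxides, had the lowest. Labelled WT arrays gave 12.03, 11.84 and 11.97 and labelled gpm1 arrays 10.32, 11.32 and 11.50. All 3 of the latter were lower, replicate 1 by far the most, and the difference was -0.90 (SE 0.31, adjusted p = 0.201). Without labelled gpm1 replicate 3, in the fit that called 41.1% of all genes, AHP1 passed at -1.13 (adjusted p = 0.033). Without replicate 1 it stood at -0.53 (adjusted p = 0.092).

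TSA1, the main cytosolic peroxiredoxin, also works as a chaperone. It stood at 12.22, 12.02 and 11.92 on the arrays labelled gpm1 against 11.98 to 12.00 on those labelled WT, and differed by 0.07 (adjusted p = 0.686). TSA2, its stress-inducible paralogue, was 6.54, 6.34 and 6.53 on the arrays labelled WT and 6.15, 6.21 and 6.27 on those labelled gpm1. These groups did not overlap (difference -0.26, SE 0.10, adjusted p = 0.206), but all 6 values, between 6.15 and 6.54, were close to the background level of 6.10. Probe sequences were not at hand, and signal shared with TSA1 was not checked. DOT5, the nuclear peroxiredoxin, was 8.58, 8.65 and 8.67 on the arrays labelled WT and 8.94, 8.95 and 8.74 on those labelled gpm1. It was higher in each of these (difference 0.24, SE 0.10, adjusted p = 0.218). DOT5 passed without labelled gpm1 replicate 3 at 0.31 (adjusted p = 0.018), as did 41.1% of all genes. PRX1, the mitochondrial peroxiredoxin, stood at 11.29, 10.74 and 10.52 on the arrays labelled gpm1 against 10.95 to 11.08, above labelled WT in replicate 1 and below it in replicates 2 and 3 (difference -0.14, adjusted p = 0.666).

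In the thioredoxin system the cytosolic genes TRX1 and TRR1 lay above labelled WT in each array labelled gpm1, and the mitochondrial genes TRX3 and TRR2 lay below it in each. The cytosolic TRX2 lay on either side. Counted with the methionine sulfoxide reductase gene MXR1, groups did not overlap for 5 of 6 genes, while 0 passed with limma over all 6 arrays (5 before adjustment). Over all genes 34.6% did not overlap and 22.4% had an unadjusted p under 0.05. The values describe these 6 genes only, and compartments were not tested against each other as groups. Outside these 6, the cytosolic AHP1 lay below the mean of labelled WT in each array labelled gpm1. SOD1, also cytosolic, and the mitochondrial GRX5 lay above it in each.

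TRR1 encodes the cytosolic thioredoxin reductase. Its signal was 9.90, 9.95 and 9.92 on the arrays labelled WT and 10.88, 10.49 and 10.12 on those labelled gpm1, a difference of 0.58 (SE 0.19, adjusted p = 0.199). TRX1, a cytosolic thioredoxin, was 11.24, 11.26 and 11.20 on the arrays labelled WT and 11.47, 11.53 and 11.36 on those labelled gpm1. That is a difference of 0.22 (SE 0.09, adjusted p = 0.219). For TRX1 the gap between the labelled groups was small but larger than the range within labelled WT.

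TRX2, the other cytosolic thioredoxin and a common reporter of Yap1 activity, did not follow TRX1. It stood at 11.20, 11.13 and 11.21 on the arrays labelled WT and 11.35, 10.91 and 10.87 on those labelled gpm1 (difference -0.14, adjusted p = 0.557). Replicate 1 was above labelled WT and replicates 2 and 3 were below.

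TRX3 encodes the mitochondrial thioredoxin. Its signal was 9.87, 9.81 and 9.84 on the arrays labelled WT and 8.89, 9.25 and 9.62 on those labelled gpm1 (difference -0.59, SE 0.18, adjusted p = 0.196). The departure from labelled WT was largest in replicate 1 and smallest in replicate 3, as it was, in the other direction, for TRR1. TRR2, the mitochondrial thioredoxin reductase gene, was 8.94, 8.88 and 8.99 on the arrays labelled WT and 8.65, 8.62 and 8.63 on those labelled gpm1. Here all 3 arrays labelled gpm1 were alike, including replicate 3, with departures of -0.28, -0.32 and -0.31, and the difference was -0.30 (SE 0.08, adjusted p = 0.186).

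MXR1 encodes the reductase that repairs oxidised methionine with electrons from thioredoxin. Its values, 9.95, 10.00 and 10.04 in labelled WT and 10.28, 10.18 and 10.22 in labelled gpm1, also separated evenly, with departures of 0.28, 0.18 and 0.22 (difference 0.23, SE 0.08, adjusted p = 0.206). Without labelled gpm1 replicate 3, TRR1 (0.77, adjusted p = 0.0085) and TRX1 (0.26, adjusted p = 0.028) passed as higher, and TRX3 (-0.77, adjusted p = 0.0068) and TRR2 (-0.30, adjusted p = 0.023) as lower. In that fit 41.1% of all genes passed, 21.6% as higher and 19.5% as lower.

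**Figure D3:**
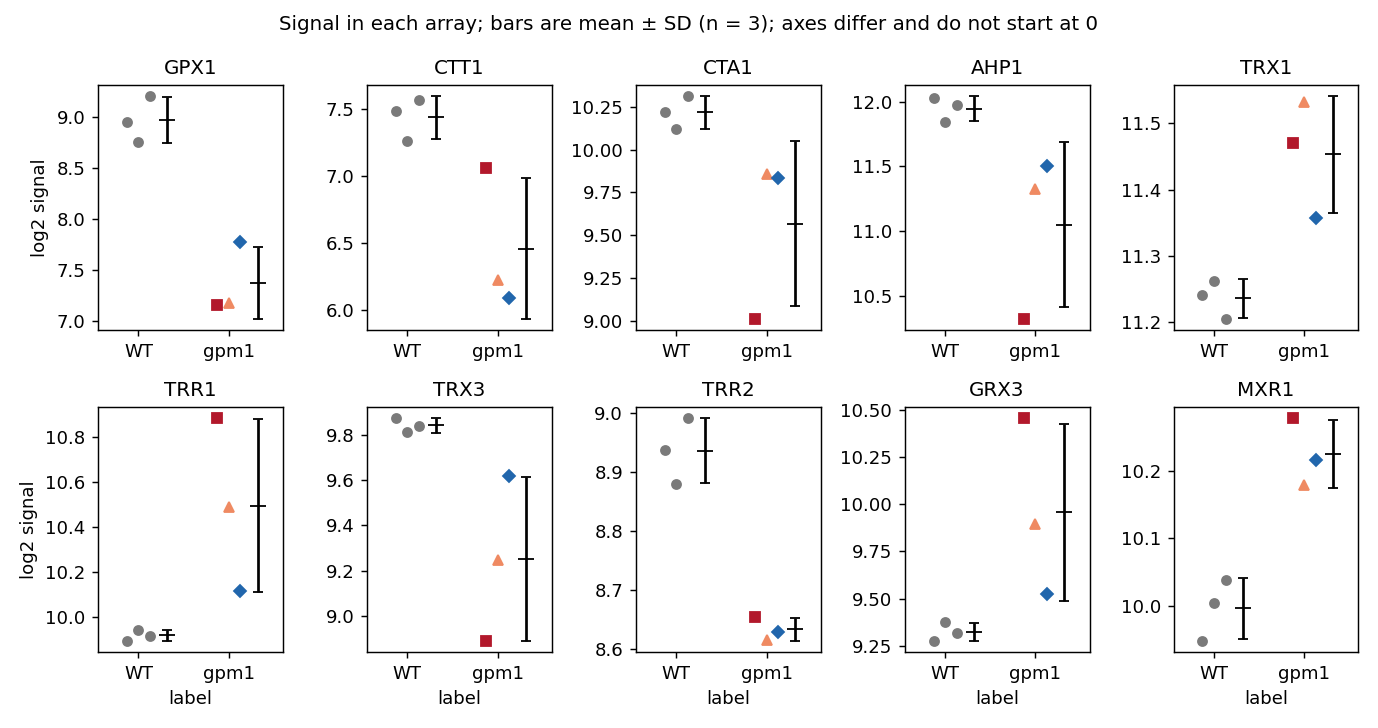
Log2 signal of 10 of the 32 genes in each array, by label, with grey circles for labelled WT, symbols for labelled gpm1 replicates 1 (square), 2 (triangle) and 3 (diamond), and bars for the mean ± SD (n = 3). TRR1 and TRX3 depart from labelled WT most in replicate 1, while TRR2 and MXR1 depart by nearly the same amount in all 3 arrays. The 10 genes shown are all among the 15 of the 32 whose labelled groups do not overlap.

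The genes that make, reduce and use glutathione departed from labelled WT most in replicate 1, and 0 of the 5 passed with limma (1 before adjustment). GSH1 and GSH2, for the consecutive enzymes of glutathione synthesis, differed by -0.14 (adjusted p = 0.643) and 0.02 (adjusted p = 0.925). GLR1, the glutathione reductase gene, gave 9.03, 9.94 and 10.14 in labelled gpm1 and 10.09, 10.11 and 10.13 in labelled WT, so that replicate 1 alone lay 1.08 below the mean of labelled WT (difference -0.41, adjusted p = 0.394). GTT2, a glutathione transferase gene, was 7.91, 6.82 and 6.68 against 6.73 to 6.85, with replicate 1 alone 1.10 above labelled WT (difference 0.33, adjusted p = 0.530).

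GTT1, for the glutathione transferase of the endoplasmic reticulum, was the 1 gene of these 5 whose groups did not overlap. It stood at 9.61, 9.43 and 9.64 on the arrays labelled WT and 8.81, 9.32 and 9.21 on those labelled gpm1 (difference -0.45, SE 0.16, adjusted p = 0.203). GTT1 (YIR038C) is the chromosomal neighbour of HYR1 (YIR037W), the only neighbouring pair among the 32 genes. In these 5 genes labelled gpm1 replicate 1 was the farthest of the 3 arrays from labelled WT each time, as it was for 58.4% of all genes.

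Glutaredoxins are small thiol reductases that draw on glutathione, and some of them bind iron-sulfur clusters. Of the 5 genes 0 passed with limma (1 before adjustment). GRX3, a monothiol glutaredoxin that signals iron status to the regulator Aft1, had the highest difference of the 32 genes. Its signal was 9.28, 9.38 and 9.32 on the arrays labelled WT and 10.46, 9.89 and 9.53 on those labelled gpm1 (difference 0.63, SE 0.23, adjusted p = 0.206). Each array labelled gpm1 was higher, replicate 1 the most and replicate 3 the least. GRX3 passed without replicate 3 at 0.85 (adjusted p = 0.015), as did 41.1% of all genes.

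GRX4, the paralogue of GRX3 with the same role, was also higher in each array labelled gpm1, at 9.25, 9.39 and 9.36 against 9.13, 9.19 and 9.17 (difference 0.17, SE 0.08, adjusted p = 0.259). GRX5, which serves iron-sulfur cluster assembly in mitochondria, differed by 0.05 (adjusted p = 0.719). The dithiol glutaredoxin genes GRX1 and GRX2 had differences of opposite sign and overlapping groups. GRX1 stood at 11.02, 10.36 and 10.25 on the arrays labelled gpm1 against 10.28 to 10.33 (difference 0.23, adjusted p = 0.490), and GRX2 at 10.67, 10.11 and 10.35 against 10.50 to 10.71 (difference -0.22, adjusted p = 0.409).

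Neither regulator passed, and 0 of the 2 did so before adjustment. YAP1 stood at 9.18, 9.23 and 9.06 on the arrays labelled gpm1 against 9.16, 9.23 and 9.32, a difference of -0.08 (SE 0.09, adjusted p = 0.583). SKN7 differed by 0.13 (SE 0.10, adjusted p = 0.434), with replicates 1 and 2 above labelled WT and replicate 3 inside its range. Yap1 is controlled mainly through its place in the cell, which these arrays do not read.

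Related genes were next compared within each array, as the log2 signal of one gene minus that of another, which leaves out shifts common to an array. Signals of different probe sets are not comparable as levels. Where this value is printed, only its change between the labelled groups can be read, and not its sign or size. Of 12 pairs, 5 had groups that did not overlap, each at the smallest p that 3 against 3 arrays allow (exact two-sided permutation test, p = 0.1, adjusted p = 0.24 over the pairs). No pair could pass in this design. The share without overlap among other gene pairs was not counted, and over single genes it was 34.6%.

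GPX1 moved against HYR1 by -1.68, from -1.41 ± 0.21 to -3.09 ± 0.55 (SD, n = 3). TRR2 against TRR1 moved by -0.88, from -0.98 ± 0.07 to -1.86 ± 0.37, with -2.23, -1.87 and -1.49 in labelled gpm1 replicates 1, 2 and 3. Relative to the cytosolic reductase gene, the mitochondrial one thus stood lower in each array labelled gpm1 than in any array labelled WT. TRX3 against TRX1, a pair chosen after the values were seen and given without a test, moved by -0.81, while TRX3 against TRX2 moved by -0.45 with overlapping groups.

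GTT1 against GTT2 moved by -0.77, mostly in replicate 1 (0.90, beside 2.50 and 2.54 in the others and 2.59 to 2.88 in labelled WT). GRX1 against GRX2 moved by 0.45. TSA2 against TSA1 moved by -0.33, and its groups all but touched, at -5.652 in labelled WT replicate 2 and -5.653 in labelled gpm1 replicate 3. The other 7 pairs overlapped. CTT1 against CTA1 was among them, at -1.95, -3.64 and -3.74 on the arrays labelled gpm1 around -2.78 ± 0.07 on those labelled WT (exact p = 0.6). It lay above labelled WT in replicate 1 and below it in replicates 2 and 3. CTT1 was close to background in replicate 2 and at background in replicate 3.

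**Figure D4:**
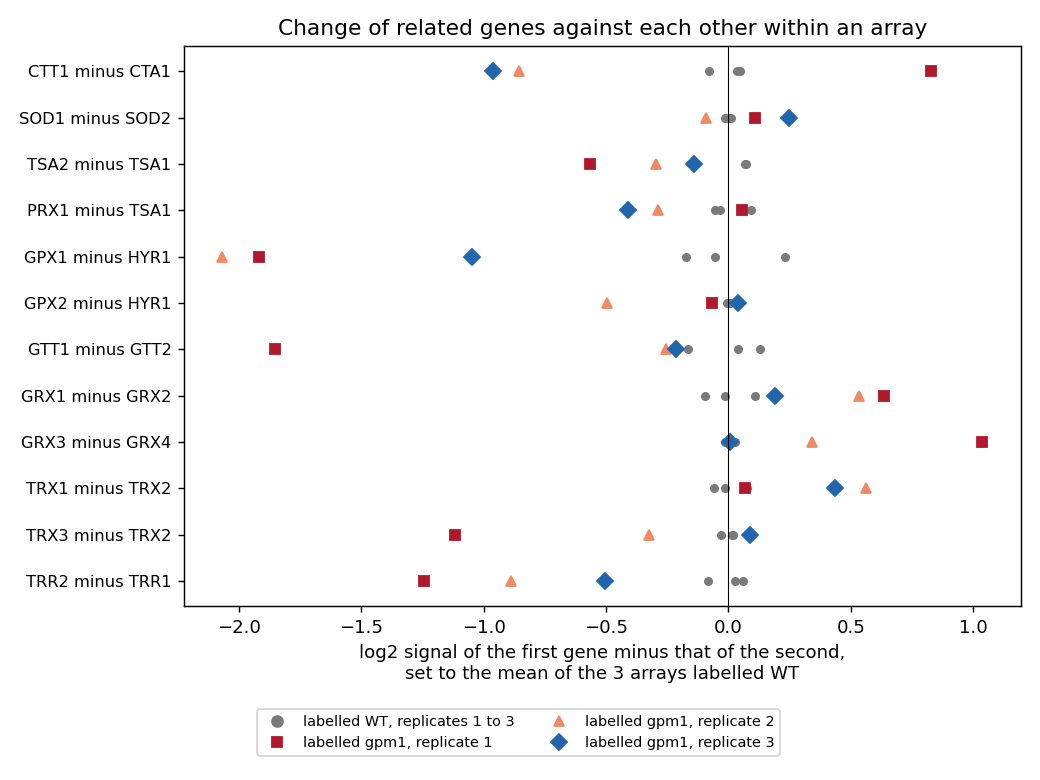
Log2 signal of the first gene minus that of the second in each array, set to the mean of the arrays labelled WT, for 12 pairs. Grey circles are arrays labelled WT. In 5 pairs all 3 coloured symbols lie on one side of the grey ones, among them GPX1 minus HYR1 and TRR2 minus TRR1, and CTT1 minus CTA1 has symbols on either side.

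Across the 32 genes, 17 (53.1%) had all 3 arrays labelled gpm1 on one side of the mean of labelled WT, 9 lower and 8 higher, beside 47.0% of all genes. In 7 of these the departure was largest in replicate 1, smaller in 2 and smallest in 3, the order that the poly-A controls and the first principal component have as well. They were TSA2, AHP1, GPX1, GRX3, GRX5, TRX3 and TRR1, and 22.2% of all genes had this order, beside 21.9% of the 32. Replicates 1 and 2 were nearly tied for GRX5 (0.0678 and 0.0676) and GPX1 (-1.81 and -1.79). Labelled gpm1 replicate 1 was the farthest array for 17 of the 32 genes (53.1%, beside 58.4% of all genes), and replicate 3 for 5, which were CTT1, at background there, PRX1, CCP1, TRX2 and YAP1. Without replicate 3, 8 of the 32 genes passed, 4 higher (DOT5, GRX3, TRX1 and TRR1) and 4 lower (AHP1, GPX1, TRX3 and TRR2). That is 25.0%, below the 41.1% of all genes. Over the 15 alternatives the adjusted p reached 0.506 for AHP1, GRX3, TRX3, TRR1 and TRR2, 0.511 for TRX1 and 0.515 for DOT5, and over 14 it reached 0.506 for CTT1. The lowest adjusted p of each of these 8 genes is the one printed above.

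Further genes of the same pathways were read from 3 lists that hold none of the 32. Of 17 other glutathione genes 0 passed with limma (median 0.06). Before adjustment 6 did (35.3%, beside 22.4% of all genes). The largest differences belonged to ECM4, an omega-class glutathione transferase gene, at -1.03 (adjusted p = 0.133), and GLO4, a mitochondrial glyoxalase gene, at -1.02 (adjusted p = 0.192). Neither had overlapping groups. ECM4 stood at 7.97, 8.37 and 8.82 on the arrays labelled gpm1 against 9.28 to 9.50 on those labelled WT. Without labelled gpm1 replicate 3, 11 of the 17 passed, 5 higher and 6 lower (64.7%, beside 41.1% of all genes), among them ECM4 at -1.25 (adjusted p = 0.0029) and GLO4 at -1.33 (adjusted p = 0.0041).

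Of 18 other oxidant defence genes 0 passed with limma (median -0.11). Before adjustment 4 did (22.2%, beside 22.4% of all genes). SRX1 encodes sulfiredoxin, which restores peroxiredoxins that have been overoxidised. Labelled WT arrays gave 7.96, 7.76 and 7.96 and labelled gpm1 arrays 7.14, 6.47 and 6.92 (difference -1.05, SE 0.18, adjusted p = 0.080). OYE2, for an NADPH dehydrogenase known as old yellow enzyme, lay the other way, at 9.53, 9.57 and 9.47 against 10.90, 10.64 and 10.14 (difference 1.04, SE 0.19, adjusted p = 0.092). For either gene the labelled groups did not overlap. Without labelled gpm1 replicate 3, 8 of the 18 passed, 3 higher and 5 lower (44.4%, beside 41.1% of all genes). Among them were SRX1 at -1.08 (adjusted p = 0.013) and OYE2 at 1.25 (adjusted p = 0.0012).

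Of 12 other regulators 0 passed with limma (median 0.01). Before adjustment 3 did (25.0%, beside 22.4% of all genes). CUP2, a copper-responsive activator that acts on SOD1 and CUP1, had the largest difference at -0.62 (adjusted p = 0.120). MSN2, for a general stress activator, differed by -0.37 (adjusted p = 0.207), with departures of -0.56, -0.45 and -0.10 in labelled gpm1 replicates 1, 2 and 3. MSN4, its counterpart, differed the other way by 0.10 (adjusted p = 0.578), with overlapping groups. CUP2 stood at 7.68, 7.39 and 7.82 on the arrays labelled gpm1 against 8.21 to 8.29, below labelled WT in each. Without labelled gpm1 replicate 3, 5 of the 12 passed, 2 higher and 3 lower (41.7%, beside 41.1% of all genes). Among them were CUP2 at -0.72 (adjusted p = 0.0058) and MSN2 at -0.50 (adjusted p = 0.0057).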

How the data were processed

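RNA of 6 yeast samples was read on 6 arrays. Per the submitters' processing notes, the authors used PLIER to make probe set values. The deposited values were taken as log2 signal from their range (4.88 to 13.12). The sources used here do not give the log base, any offset, the settings or the scaling between arrays, and every fold rests on base 2. Of 10928 probe sets, 5498 matched the R64 gene table by gene ID, which left 5449 genes, each by its brightest probe set. Background is the 95th percentile of 1746 annotated probe sets absent from that table. Labelled gpm1 minus labelled WT was fitted with limma 3.58.1 (lmFit, eBayes) in R 4.3.3, on all 6 arrays, two-sided, with Benjamini-Hochberg adjustment over all genes at 0.05. The test was also run on simulated data built from the means and spreads of these arrays. The 32 genes, the 3 further lists and the pairs were chosen with earlier results of these data known. All 32 genes could be named, and from each further list those past the threshold and the 2 with the largest difference. MSN4 was named besides, as the counterpart of MSN2. Alternatives were quantile normalization, centring, offsets of 16 and 64, omitting the dimmest 20% of genes, averaging probe sets, a trend and robust prior, array weights, a replicate block and leaving out each array. No arrays were identical. Plots used matplotlib 3.10.9 in Python 3.11.15. No sequence was used here, so a planned count of promoter motifs was not made.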

Additional observations from a re-analysis of the deposited data

How the results depend on the processing

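Among the 32 genes 1 passed, and the same gene, GPX1, passed under 8 of the 9 alternatives that keep all 6 arrays as the only one, with an adjusted p between 0.020 and 0.049. With array weights, whose estimate stopped before its convergence tolerance, 6 passed, 2 higher (GRX3, TRR1) and 4 lower (CTT1, AHP1, GPX1, TRX3), while 1009 of all genes passed, 500 of them lower. With 1 array left out the count among the 32 ran from 0 to 8, of lower genes from 0 to 4 and of higher genes from 0 to 4; over all genes it ran from 11 to 2240, and of lower genes from 10 to 1064. The highest counts came without labelled gpm1 replicate 3. The cause was not tested. Leaving out the dimmest 20% kept 28 of the 32 genes and removed CTT1, TSA2, GPX2 and GTT2. The median difference over the 32 genes stayed between -0.06 and 0.02.

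Direction turned for 8 of the 32 genes, none of them called, with GTT2 (0.33 over all 6 arrays) and GRX1 (0.23) the largest; these turned without labelled gpm1 replicate 1. Centring each array gave SOD2 -0.012 and GSH2 -0.00083, and quantile normalization gave GSH2 -0.022. With 1 array left out the ranges that crossed 0 were -0.0047 to 0.38 for GRX1, -0.27 to 0.063 for GSH1, -0.048 to 0.14 for GSH2, -0.059 to 0.56 for GTT2, -0.022 to 0.19 for HYR1, -0.36 to 0.022 for PRX1, -0.098 to 0.076 for SOD2 and -0.015 to 0.14 for TSA1. Same-numbered arrays had correlations of 0.05, 0.02 and -0.13 between their departures from group means, so no shared departure was evident. Whether the numbers pair the samples cannot be decided from these values, because the arrays labelled gpm1 spread more than those labelled WT. With the replicate block 31 of all genes and 1 of the 32 passed. The motif window was not tried because no promoter sequence was used.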
